A study of Homo sapiens with 6 samples.

Results

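Survivin (BIRC5), the Aurora kinases AURKA and AURKB, the Polo-like kinases PLK1 and PLK4, the kinase NEK2 and 4 of their partners (INCENP, CDCA8, BORA and SGO1) were followed in TT cells treated with either of 2 inhibitors of focal adhesion kinase (FAK). All probes annotated to these 10 genes under a current or an older symbol were taken, out of 20045 genes that the probe annotation names. They had 15 probes, of which 14 were detected and tested. TT cells are an established line from medullary thyroid carcinoma, the cancer of the calcitonin-secreting cells of the thyroid. The study asked how the response to Y15, directed at the autophosphorylation site of FAK, differs from that to PF-04554878 (defactinib), which blocks its kinase activity. Total RNA was measured on 6 Illumina bead arrays, 2 for each of 3 groups: cells given 10 μM Y15, cells given 10 μM PF-04554878 and cells left untreated. Both treatments lasted a day, and no genetic manipulation of any group is described. The controls had no vehicle, while PBS carried Y15 and DMSO carried PF-04554878, so an effect of a solvent cannot be told apart from that of its compound. The labels number the arrays of a group without saying that the cells came from separate cultures, although the methods describe duplicate plates, so p-values measure only the spread between these arrays. In separate assays the study describes detachment of most TT cells at Y15 doses that include 10 μM, and death of many at a lower dose. Whether detached cells entered the RNA is not given in the sources used here.

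Mitosis is ordered by a small set of protein kinases. Aurora B forms the chromosomal passenger complex with INCENP, survivin and borealin (the product of CDCA8), and the complex moves from the inner centromere to the spindle midzone to correct chromosome attachment and to direct division of the cell. Aurora A works at the centrosomes and spindle poles and, with its cofactor Bora, activates Polo-like kinase 1. PLK4 starts the duplication of centrioles, NEK2 separates the centrosomes and shugoshin 1 (SGO1) protects cohesion at the centromere. Most of these genes are transcribed late in the cell cycle, and survivin is also known as an inhibitor of apoptosis.

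The treated arrays were dimmer than the untreated arrays before normalization. The mean bead intensity was 263 to 273 on the Y15 arrays, 348 to 359 on the PF-04554878 arrays and 468 to 539 on the untreated arrays, and the number of detected probes was 15215 to 16537 on the Y15 arrays, 15215 to 15671 on the PF-04554878 arrays and 17474 to 18488 on the untreated arrays. Of the 15 member probes, 9 to 12 were detected on a Y15 array, 12 on each PF-04554878 array and 14 on each untreated array. Among the markers of calcitonin-secreting cells, 8 of 9 annotated genes were detected on both Y15 arrays and 9 of 9 on both arrays of each other group, with summed intensities of 34775 to 36540 on the Y15 arrays, 70442 to 74269 on the PF-04554878 arrays and 79870 to 84136 on the untreated arrays. None of the 4 annotated markers of thyroid follicular cells and none of the 4 endothelial markers was detected on both arrays of a group. Of 6 fibroblast markers, 1 (LUM) was detected on both untreated arrays and none on both arrays of a treated group. Of 4 annotated immune markers, 1 (CD68) was detected on all 6 arrays, and it was higher by 1.89 under Y15 (adjusted p = 4.8e-05) and by 1.22 under PF-04554878 (adjusted p = 7.7e-05). The part of CD68 and of the dimmer arrays in the results was not tested.

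Late cell cycle genes commonly carry a short element called the CHR close to their start, usually written TTTGAA or, in a second form, TTCGAA, with CCAAT boxes upstream of it. Windows of 250 bases before a start were found in RefSeq (GRCh38.p14) for 8 of the 10 genes. Both strands were searched for these letters. All windows of AURKB and SGO1, and windows 2 and 3 of PLK4, lay inside the span of the gene. Those windows do not hold the bases before the outermost start. No window was available for BIRC5 or AURKA, so these 2 genes were not searched. A form of the CHR was found for 4 genes (INCENP, CDCA8, PLK1 and BORA), and CCAAT for all 8, in PLK4 in only 1 of its 3 windows (window 3). In AURKB, SGO1 and PLK4 the CCAAT therefore lay inside the span of the gene. Of all 35116 windows of this length, 14.3% held a form of the CHR, 32% held CCAAT and 5.05% held both. The windows of the 4 genes with both motifs are shown, with capitals marking the CHR forms and the CCAAT box, which reads as ATTGG on the opposite strand. Under PF-04554878, CDCA8 and BORA were called lower, as were AURKB, PLK4, NEK2 and SGO1, whose windows held no CHR form. PLK1 was not called and INCENP was called higher.
CDCA8, chr1:37692266-37692515, plus strand: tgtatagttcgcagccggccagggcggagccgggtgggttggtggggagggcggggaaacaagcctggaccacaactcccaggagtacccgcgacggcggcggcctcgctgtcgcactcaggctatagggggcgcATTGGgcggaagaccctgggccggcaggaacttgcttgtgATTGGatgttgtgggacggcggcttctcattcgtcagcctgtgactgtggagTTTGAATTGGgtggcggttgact
PLK1, chr16:23678639-23678888, plus strand: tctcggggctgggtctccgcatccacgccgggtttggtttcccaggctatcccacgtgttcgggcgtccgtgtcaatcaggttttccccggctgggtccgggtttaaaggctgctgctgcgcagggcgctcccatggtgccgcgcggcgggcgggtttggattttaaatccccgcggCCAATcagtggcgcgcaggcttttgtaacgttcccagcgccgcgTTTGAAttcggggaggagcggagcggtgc
INCENP, chr11:62123761-62124010, plus strand: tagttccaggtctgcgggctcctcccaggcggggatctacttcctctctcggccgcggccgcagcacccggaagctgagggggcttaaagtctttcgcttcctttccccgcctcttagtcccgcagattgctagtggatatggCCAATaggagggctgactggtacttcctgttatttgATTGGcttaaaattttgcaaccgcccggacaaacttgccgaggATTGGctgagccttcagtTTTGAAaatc
BORA, chr13:72727673-72727922, plus strand: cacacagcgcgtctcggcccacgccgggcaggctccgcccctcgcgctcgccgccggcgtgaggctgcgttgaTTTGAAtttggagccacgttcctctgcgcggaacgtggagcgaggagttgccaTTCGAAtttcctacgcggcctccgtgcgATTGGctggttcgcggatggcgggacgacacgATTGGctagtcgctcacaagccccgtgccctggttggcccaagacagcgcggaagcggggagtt
TTTGAA began 23 bases before the start in CDCA8, 29 in PLK1 and 10 in INCENP. In CDCA8 its last letter is also the first of an ATTGG. BORA held the form TTTGAA 177 bases before the start and the second form 124 bases before it. Its CCAAT boxes began 96 and 64 bases before the start, so they lay downstream of both CHR forms, not upstream. A match is a description of the letters only.

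Under Y15, 9 of the 10 genes were lower than in untreated cells and none was higher, INCENP being the exception. Under PF-04554878, 7 were lower, 1 (INCENP) was higher, and survivin (BIRC5) and PLK1 were not called. A gene was called by its brightest detected probe at a Benjamini-Hochberg adjusted p below 0.05 in limma and a change of at least 1.2-fold. Of all 11388 genes tested, 38.1% were called under Y15, 21.4% lower and 16.7% higher, and 62.2% under PF-04554878, 35.0% lower and 27.2% higher. Of the 14 tested probes, 13 were lower under Y15, against 20.4% of all probes, and 10 were lower and 2 higher under PF-04554878, against 29.8% and 28.2% of all probes. At least 2-fold lower were 5 of the 10 genes under Y15, against 1.38% of all genes, and 6 under PF-04554878, against 9.58% of all genes. These counts include SGO1, which passed the detection filter only through the untreated arrays, so a higher call was not open to its probes. Detection on all 6 arrays leaves out SGO1 and PLK1. Of the 8 genes then tested, 7 were lower under Y15, against 22.2% of all genes, and 6 under PF-04554878, against 34.4%. The median change of the 10 genes was -0.96 under Y15 and -1.16 under PF-04554878 on the log2 scale, while that of all genes was -0.05 and -0.07. Both comparisons share the same untreated arrays. In bulk RNA, fewer dividing cells and less of a transcript in each cell cannot be told apart. Where the arrays were instead set to a common median over all probes, the median of all genes itself lay at -0.78 under Y15 and -0.59 under PF-04554878, and the share of lower genes among those called was 95.9% and 89.0%, against 56.2% and 56.3% with quantile normalization. With a common median over the tested probes these shares were 46.1% and 40.1%.

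**Figure D1:**
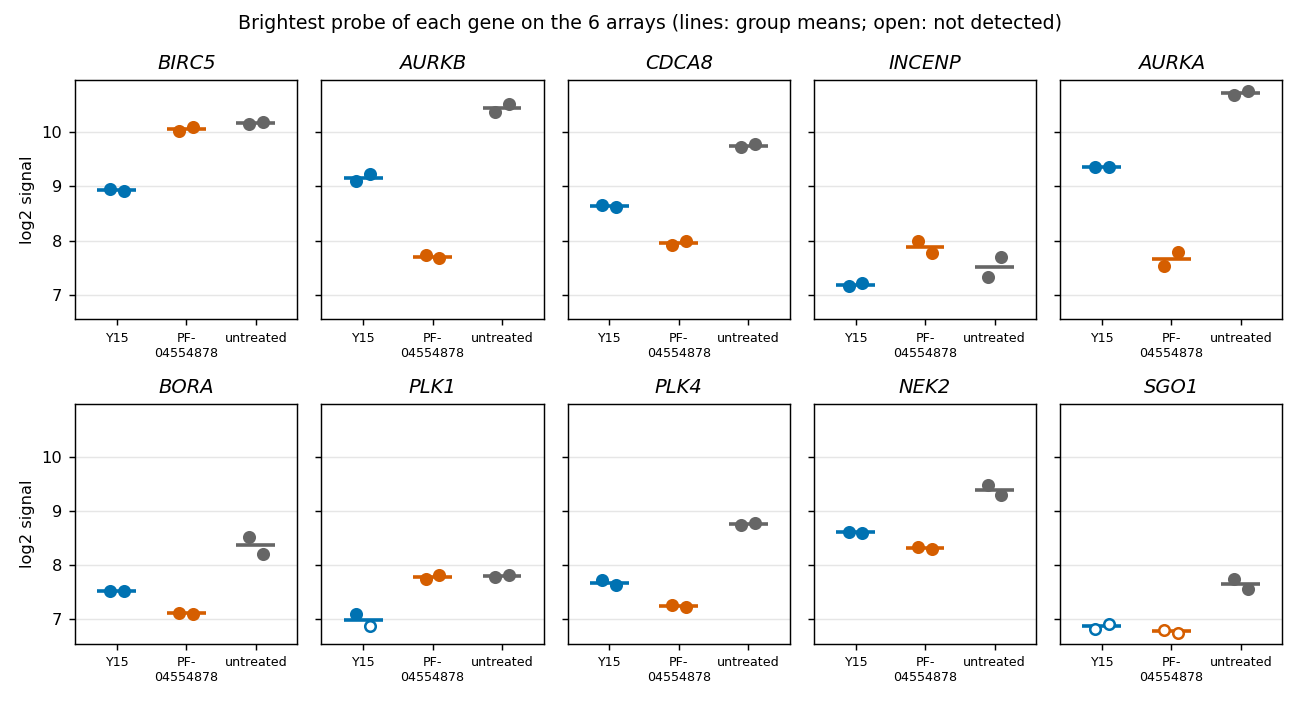
Log2 signal (vertical axis) of the brightest probe of each of the 10 genes on the 2 Y15, 2 PF-04554878 and 2 untreated arrays; points are arrays, lines are group means, and open points were not detected. The Y15 points lie below the untreated points in every panel, while the PF-04554878 points for BIRC5 (10.01 and 10.09) and PLK1 (7.75 and 7.82) lie near the untreated ones.

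Aurora B, the kinase of the passenger complex, was lower under both compounds. AURKB had a log2 signal of 9.10 and 9.22 on the Y15 arrays, 7.74 and 7.67 on the PF-04554878 arrays, and 10.37 and 10.52 on the untreated arrays. The groups did not overlap, and the PF-04554878 arrays were the lowest. AURKB was 2.44-fold lower under Y15 (log2 -1.29 ± 0.10, SE; adjusted p = 7.4e-05) and 6.69-fold lower under PF-04554878 (log2 -2.74 ± 0.10, adjusted p = 9.1e-07).

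Borealin, which joins survivin to INCENP, followed the same order. CDCA8 had 8.66 and 8.62 log2 signal on the Y15 arrays, 7.91 and 7.99 on the PF-04554878 arrays, and 9.72 and 9.78 on the untreated arrays, again with no overlap. It was 2.16-fold lower under Y15 (log2 -1.11 ± 0.08, adjusted p = 8.3e-05) and 3.48-fold lower under PF-04554878 (log2 -1.80 ± 0.08, adjusted p = 1.7e-06).

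INCENP, the scaffold that activates Aurora B, was not called lower under either compound. Its detected probe had 7.16 and 7.22 log2 signal on the Y15 arrays, 7.99 and 7.77 on the PF-04554878 arrays, and 7.34 and 7.69 on the untreated arrays. The 2 untreated arrays lay further apart than for the brightest probe of any other member, and the Y15 arrays were close to the lowest detected signal (7.04 and 6.97). The change was -0.32 under Y15 (95% confidence interval -0.63 to -0.02, adjusted p = 0.0868), which was not called, and 0.37 under PF-04554878 (0.07 to 0.67, adjusted p = 0.0391), which was called higher. Neither value was stable: with median scaling over all probes INCENP was at -0.88 under Y15 (adjusted p = 0.0012) and at -0.29 under PF-04554878 (adjusted p = 0.117), and without untreated array 1 it was at -0.45 (adjusted p = 0.0207) and 0.18 (adjusted p = 0.255). Its other probe was not detected on any array.

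Survivin separated the compounds. The brighter BIRC5 probe had a log2 signal of 8.95 and 8.91 on the Y15 arrays, 10.01 and 10.09 on the PF-04554878 arrays, and 10.15 and 10.19 on the untreated arrays. The Y15 arrays were more than 1 log2 unit below the other 4 arrays, and the PF-04554878 arrays lay just under the untreated ones. BIRC5 was 2.36-fold lower under Y15 (log2 -1.24 ± 0.08, adjusted p = 4.9e-05). Under PF-04554878 it changed by -0.11 with a 95% confidence interval of -0.31 to 0.08 (adjusted p = 0.275), so a decrease beyond 0.31 lies outside the interval. With median scaling over all probes the PF-04554878 value was -0.89 (adjusted p = 2.4e-04), where the median of all genes was at -0.59.

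The dimmer BIRC5 probe went the other way under PF-04554878. It had 7.06 and 6.93 log2 signal on the Y15 arrays, 8.96 and 9.10 on the PF-04554878 arrays, and 7.37 and 7.32 on the untreated arrays. The PF-04554878 arrays stood far above all others, and the Y15 arrays sat at the detection limit, with array 2 not detected. The probe was called higher under PF-04554878, with a log2 change of 1.69 ± 0.09 (3.22-fold, adjusted p = 3.6e-06), and lower under Y15, with -0.35 ± 0.09 (1.27-fold, adjusted p = 0.0211). The Y15 call was lost without untreated array 1, untreated array 2 or Y15 array 2 (adjusted p = 0.108, 0.0627 and 0.120), and with a common median over the tested probes the value was 0.032 (adjusted p = 0.787).

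The annotation ties the brighter probe to the main survivin transcript and the dimmer probe to the transcript of the longer survivin-2B form. No probe sequence was used here, so which transcripts each probe binds is known only from that annotation. The difference between the probes was tested on each array across 3551 pairs of probes for the same gene. The change of the brighter probe minus that of the dimmer probe was -1.80 under PF-04554878 (95% confidence interval -2.01 to -1.59, adjusted p = 1.8e-05), which was the 61st largest of these 3551 differences. Under Y15 the difference was -0.89 (-1.10 to -0.67, adjusted p = 7.2e-04), but it was -0.36 and not called with neqc background correction (adjusted p = 0.195). Differences between probes were common: 35.0% of pairs were called under Y15 and 41.3% under PF-04554878. For Y15 against PF-04554878, 46.2% of pairs were called, and the BIRC5 probes differed by 0.91 (0.70 to 1.13, adjusted p = 2.1e-04).

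**Figure D2:**
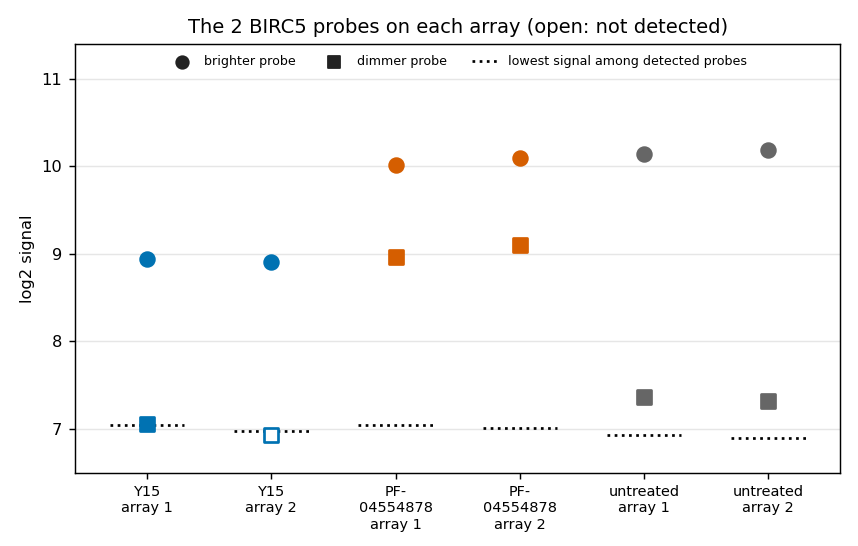
Log2 signal (vertical axis) of the brighter BIRC5 probe (circles) and the dimmer BIRC5 probe (squares) on each of the 6 arrays, with dotted lines at the lowest signal among detected probes of that array and open symbols where the probe was not detected. On the PF-04554878 arrays the dimmer probe stands at 8.96 and 9.10, against 7.37 and 7.32 on the untreated arrays, while on the Y15 arrays it lies at the dotted line; levels of the 2 probes are not comparable with each other.

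AURKA, the kinase of the spindle poles, had the largest decrease of the 10 genes under both compounds, although several members were not separated from it. Under Y15 the difference from AURKA was not called for AURKB, BIRC5, CDCA8 or PLK4 (adjusted p = 0.681, 0.359, 0.0809 and 0.0874), and under PF-04554878 it was not called for AURKB (adjusted p = 0.0737). Its brighter probe had 9.36 and 9.36 log2 signal on the Y15 arrays, 7.54 and 7.79 on the PF-04554878 arrays, and 10.68 and 10.77 on the untreated arrays. The groups were well apart, with PF-04554878 lowest. AURKA was 2.57-fold lower under Y15 (log2 -1.36 ± 0.10, adjusted p = 8.3e-05) and 8.34-fold lower under PF-04554878 (log2 -3.06 ± 0.10, adjusted p = 9.1e-07). The dimmer AURKA probe gave -1.39 and -3.01, and the difference between the probes was not called in either comparison (adjusted p = 0.85 and 0.67).

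BORA, which presents PLK1 to Aurora A, was also down-regulated under both. It had 7.52 log2 signal on each Y15 array, 7.11 and 7.10 on the PF-04554878 arrays, and 8.52 and 8.21 on the untreated arrays, without overlap. The PF-04554878 arrays were close to the lowest detected signal (7.04 and 7.01), so a much larger fall could not have been measured there. The change of BORA was -0.84 ± 0.11 under Y15 (1.80-fold lower, adjusted p = 9.2e-04) and -1.26 ± 0.11 under PF-04554878 (2.40-fold lower, adjusted p = 3.2e-05).

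PLK1, which drives entry into mitosis and spindle assembly, was called lower under Y15 and not under PF-04554878. It had 7.10 and 6.87 log2 signal on the Y15 arrays, 7.75 and 7.82 on the PF-04554878 arrays, and 7.78 and 7.82 on the untreated arrays. The PF-04554878 and untreated arrays overlapped, and PLK1 was not detected on Y15 array 2. It was 1.76-fold lower under Y15 (log2 -0.82 ± 0.10, adjusted p = 6.3e-04). Under PF-04554878 the change was -0.02 with an interval of -0.25 to 0.21 (adjusted p = 0.88), and -0.80 with median scaling over all probes (adjusted p = 2.6e-04). PLK4, the kinase of centriole duplication, was lower under both compounds, with 7.72 and 7.63 log2 signal on the Y15 arrays, 7.27 and 7.23 on the PF-04554878 arrays, and 8.73 and 8.76 on the untreated arrays. PLK4 was 2.10-fold lower under Y15 (log2 -1.07 ± 0.08, adjusted p = 9.5e-05) and 2.82-fold lower under PF-04554878 (log2 -1.50 ± 0.08, adjusted p = 3.7e-06).

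NEK2 fell on both of its probes, by sizes that differed under PF-04554878. The brighter NEK2 probe had 8.62 and 8.59 log2 signal on the Y15 arrays, 8.33 and 8.30 on the PF-04554878 arrays, and 9.47 and 9.30 on the untreated arrays. Its change was -0.78 ± 0.09 under Y15 (adjusted p = 5.4e-04) and -1.07 ± 0.09 under PF-04554878 (adjusted p = 2.7e-05). The dimmer NEK2 probe had 7.24 and 6.95 on the Y15 arrays, the second of which was not detected, 7.37 and 7.46 on the PF-04554878 arrays, and 7.94 and 7.87 on the untreated arrays. It placed PF-04554878 above Y15, with changes of -0.81 ± 0.11 under Y15 (adjusted p = 0.00111) and -0.49 ± 0.11 under PF-04554878 (adjusted p = 0.00535). The difference between the NEK2 probes was 0.03 under Y15 (adjusted p = 0.873) and -0.58 under PF-04554878 (adjusted p = 0.00567).

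SGO1 was detected only on the untreated arrays. Its brighter probe was not detected at 6.83 and 6.91 log2 signal on the Y15 arrays or at 6.81 and 6.75 on the PF-04554878 arrays, and had 7.74 and 7.56 on the untreated arrays. Folds are therefore bounds against the lowest detected signal: SGO1 was at least 1.56-fold lower under Y15 (adjusted p = 6.8e-04) and at least 1.54-fold lower under PF-04554878 (adjusted p = 1.1e-04). The dimmer SGO1 probe, also undetected on all 4 treated arrays, was at least 1.38-fold lower under Y15 and at least 1.36-fold lower under PF-04554878 (adjusted p = 0.0046 and 0.001), and its Y15 call was lost with a common median over the tested probes (adjusted p = 0.103).

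**Figure D3:**
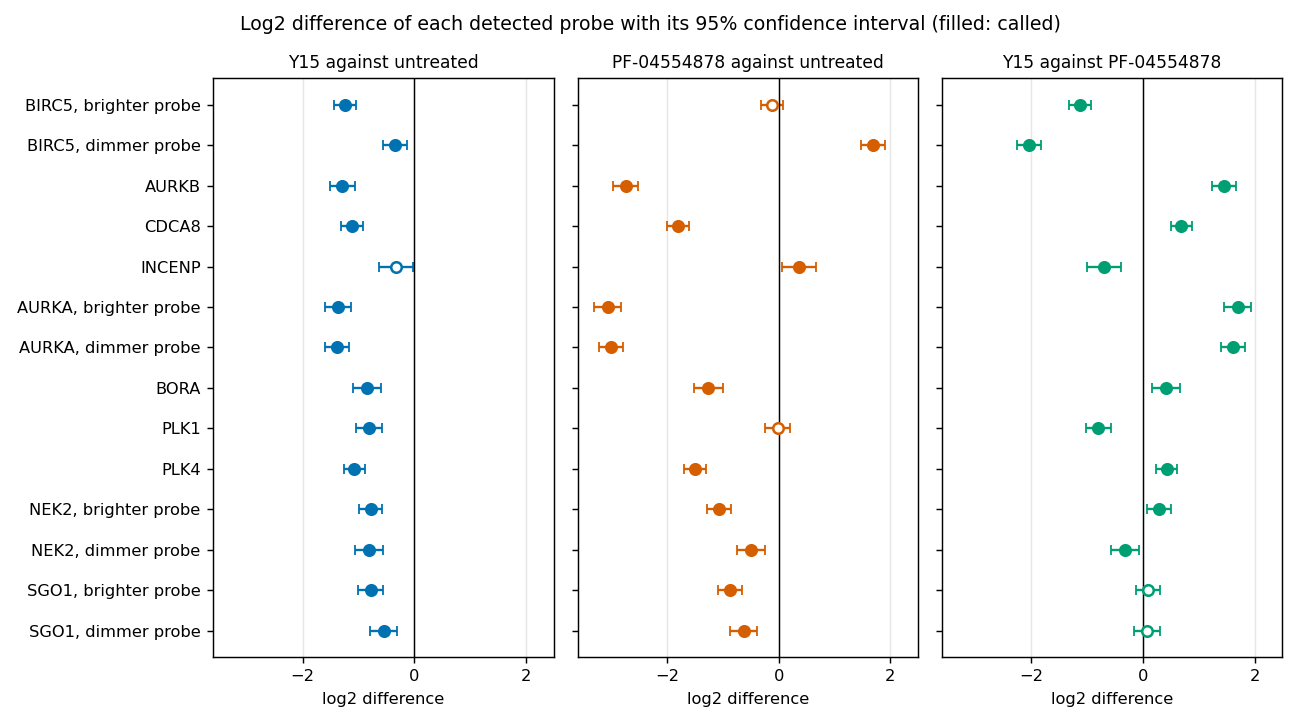
Log2 difference (horizontal axis) of each of the 14 tested probes for Y15 against untreated, PF-04554878 against untreated and Y15 against PF-04554878, with 95% confidence intervals from limma; filled points were called. Under Y15 the probes lie between -1.39 and -0.32, while under PF-04554878 they spread from -3.06 (AURKA) to 1.69 (dimmer BIRC5 probe).

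The 2 compounds, given at the same dose, differed in 9 of the 10 genes when set directly against each other, against 60.6% of all genes. Lower in Y15 than in PF-04554878 were BIRC5, PLK1 and INCENP, and higher were AURKA, AURKB, CDCA8, PLK4, BORA and NEK2, against 27.6% of all genes called lower and 32.9% called higher. Only this pair of compounds could be compared. BIRC5 differed by -1.12 on the brighter probe (95% confidence interval -1.32 to -0.93, adjusted p = 1.5e-05) and by -2.04 on the dimmer probe (-2.25 to -1.82, adjusted p = 2.1e-06). PLK1 differed by -0.80 (-1.03 to -0.57, adjusted p = 2.2e-04) and INCENP by -0.69 (-0.99 to -0.39, adjusted p = 0.00216). BIRC5 alone was at least 2-fold lower, against 6.34% of all genes. Of all 18876 probes, 28.9% were lower and 27.8% were higher in Y15.

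The opposite side was led by the Aurora kinases. AURKA was higher in Y15 than in PF-04554878 by 1.70 on the log2 scale (1.46 to 1.94, adjusted p = 6.0e-06) and AURKB by 1.45 (1.23 to 1.67, adjusted p = 8.7e-06). CDCA8 was higher by 0.69 (0.49 to 0.88, adjusted p = 2.0e-04), and PLK4 and BORA were higher by 0.43 and 0.42 (adjusted p = 0.00279 and 0.0125). BORA lost this call with either median scaling (adjusted p = 0.22 and 0.0669) and without either Y15 array (adjusted p = 0.0559 and 0.0581). The NEK2 probes disagreed in sign, with 0.29 on the brighter probe (adjusted p = 0.0268) and -0.32 on the dimmer probe (adjusted p = 0.0374), and both calls were lost with either median scaling. SGO1 gave no fold between the compounds because it was undetected in both.

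On its brighter probe, the change of BIRC5 could not be separated from those of AURKB and CDCA8 under Y15, whereas it was far from both under PF-04554878. The dimmer BIRC5 probe, which changed by -0.35 under Y15 at the detection limit and by 1.69 under PF-04554878, did not enter these differences. These differences between genes were tested after the values had been seen, together with the probe pairs above. Under Y15 the change of BIRC5 minus that of AURKB was 0.05 (95% confidence interval -0.20 to 0.30, adjusted p = 0.753), and minus that of CDCA8 it was -0.13 (-0.32 to 0.07, adjusted p = 0.295). Under PF-04554878 the same differences were 2.63 for BIRC5 against AURKB (2.38 to 2.87, adjusted p = 5.3e-06) and 1.69 for BIRC5 against CDCA8 (1.49 to 1.89, adjusted p = 1.2e-05). BIRC5 minus INCENP was -0.91 under Y15 (adjusted p = 0.0027) and -0.48 under PF-04554878 (adjusted p = 0.0277). INCENP differed from AURKB under both compounds, with AURKB minus INCENP at -0.96 under Y15 (adjusted p = 9.8e-04) and -3.11 under PF-04554878 (adjusted p = 5.1e-06). INCENP was at 7.34 and 7.69 on the untreated arrays, and the lowest detected signal on the Y15 arrays was 7.04 and 6.97. A fall as large as that of AURKB, or of BIRC5 under Y15, could therefore not have been measured for INCENP. AURKA and PLK1, which act in the same pathway, differed by -0.55 under Y15 (AURKA minus PLK1, adjusted p = 0.00826) and by -3.04 under PF-04554878 (adjusted p = 5.1e-06). PLK1 reached the lowest detected signal under Y15, at 7.10 and 6.87, and was not detected on Y15 array 2. From its untreated signal of 7.78 and 7.82, a fall as large as that of AURKA could not have been measured under either compound. BIRC5 minus PLK1 was -0.42 under Y15 (-0.65 to -0.19, adjusted p = 0.0136), where the same limit on PLK1 holds. Under PF-04554878 it was -0.09 (-0.32 to 0.13, adjusted p = 0.482).

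The profiles over the 6 arrays can be ranked by the distance between log2 values taken relative to the untreated mean. Among the 10 genes, AURKB was nearest to AURKA (0.53) and PLK1 was nearest to BIRC5 (0.62), whereas BIRC5 and AURKA were 4.17 apart. Of 11352 other named genes, the 5 nearest to BIRC5 were NUF2 (0.31), a kinetochore subunit that binds microtubules, MTUS1 (0.34), SKIC3 (0.43), ZBED1 (0.43) and PCNX4 (0.44). NUF2 had log2 changes of -1.18 under Y15 and -0.22 under PF-04554878. The 5 nearest to AURKA were CDKN3 (0.62), a phosphatase of cyclin-dependent kinases, ZBED5 (0.70), MCM6 (0.71), a subunit of the replicative helicase, CCNB2 (0.74), the mitotic cyclin B2, and DLGAP5 (0.77), a spindle microtubule protein. CDKN3 had log2 changes of -1.63 under Y15 and -2.90 under PF-04554878. These distances are descriptions.

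Genes that act with the 10 were then followed in 12 lists. Of 159 genes, 127 were measured, and 71 were called lower and 11 higher under Y15, and 76 lower and 29 higher under PF-04554878. The counts of these lists are to be read against the shares of all genes, 21.4% lower and 16.7% higher under Y15 and 35.0% lower and 27.2% higher under PF-04554878. They include genes detected only on the untreated arrays, such as CEP152, to which a higher call was not open. With detection on all 6 arrays, 8 of 8 genes that place the passenger complex and 7 of 7 other mitotic kinases were lower under Y15. So were 7 of 12 genes of the CDK1 switch and 5 of 10 centriole genes. Under PF-04554878 these were 6 of 8, 7 of 7, 8 of 12 and 6 of 10. The shares of all genes were then 22.2% and 34.4%. The median change of the 127 measured genes was -0.36 under Y15 and -0.43 under PF-04554878, beside -0.05 and -0.07 for all genes. With median scaling over all probes, a single higher call was left under Y15 (CDKN1A) and 5 under PF-04554878 (BTRC, DYRK1A, PPP1CB, PPP2CA and RAD21). A common median over the tested probes did not remove the higher calls in this way: under PF-04554878 it gave 6 higher genes in the centriole list and 7 among the phosphatases, against 4 and 5 with quantile normalization.

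Genes that place the passenger complex or act at the midzone were lower in 11 of 11 measured cases under Y15 (HASPIN at 0.06 with a common median over the tested probes), with a median of -1.26. Under PF-04554878, 9 were lower and 1 was higher (PRC1, 0.36, at -0.14 with median scaling over all probes), with a median of -1.39. CENPA, the centromeric histone, had 7.93 and 8.06 log2 signal on the Y15 arrays, was undetected on both PF-04554878 arrays, and had 9.94 and 9.81 on the untreated arrays. It changed by -1.88 under Y15 (adjusted p = 1.2e-05) and was at least 7.20-fold lower under PF-04554878 (adjusted p = 9.0e-07), while its dimmer probe changed by -1.35 and -0.90. The motor KIF20A, which carries the complex to the midzone, fell by 1.55 under Y15 and 1.77 under PF-04554878 (adjusted p = 3.1e-05 and 3.0e-06). KIF23, a motor of the midzone bundle, separated the compounds as BIRC5 did. It had 7.52 and 7.33 on the Y15 arrays, 9.25 and 8.92 on the PF-04554878 arrays, and 8.78 and 8.87 on the untreated arrays. Its change was -1.40 under Y15 (adjusted p = 1.6e-04) and 0.26 under PF-04554878 (adjusted p = 0.102), and the compounds differed by -1.67 (adjusted p = 1.6e-05).

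Of 11 activators and partners of Aurora A, 8 were lower under Y15 and none was higher (median -0.99), and 9 were lower and 1 was higher under PF-04554878 (PPP6C, 0.68, at -0.11 with median scaling over all probes; list median -0.95). TPX2, the protein that activates Aurora A on the spindle, was reduced more under Y15 than under PF-04554878. It had 8.26 and 8.31 log2 signal on the Y15 arrays, 9.37 and 9.35 on the PF-04554878 arrays, and 9.74 and 9.72 on the untreated arrays. TPX2 changed by -1.44 under Y15 (adjusted p = 2.3e-05) and by -0.37 under PF-04554878 (adjusted p = 0.0049), and the compounds differed by -1.07 (adjusted p = 1.7e-05). HMMR and the motor KIF11, both of the spindle, fell under both compounds, by 1.56 and 1.45 under Y15 and by 1.84 and 1.61 under PF-04554878. The dimmer HMMR probe gave -1.88 and -1.83, and the dimmer KIF11 probe -1.25 and -1.51.

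The switch that turns on CDK1, to which PLK1 belongs, had 11 of 15 genes lower and none higher under Y15 (median -0.62), and 10 lower and 3 higher under PF-04554878 (FBXO5, BTRC and ARPP19, of which BTRC alone was still called higher with median scaling over all probes; median -0.82). CDK1 changed by -1.73 under Y15 and by -2.18 under PF-04554878 (adjusted p = 2.8e-04 and 2.0e-05), and its dimmer probe by -1.37 and -1.78. Cyclin B2 was the gene here that came closest to AURKA. CCNB2 had 9.81 and 9.81 log2 signal on the Y15 arrays, 8.44 and 8.44 on the PF-04554878 arrays, and 11.04 and 10.99 on the untreated arrays, with changes of -1.21 (adjusted p = 4.9e-05) and -2.58 (adjusted p = 9.0e-07). FBXO5, an inhibitor of the anaphase-promoting complex, had 8.22 and 8.16 on the Y15 arrays, 9.88 and 9.71 on the PF-04554878 arrays, and 9.55 and 9.31 on the untreated arrays. Its change was -1.24 under Y15 (adjusted p = 1.5e-04) and 0.37 under PF-04554878 (adjusted p = 0.0192), the second being -0.49 with median scaling over all probes, and its dimmer probe gave -0.18 under Y15 and 0.20 under PF-04554878. BTRC, the ubiquitin ligase subunit that recognises PLK1 targets, was higher by 1.16 under PF-04554878 (adjusted p = 1.0e-05).

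**Figure D4:**
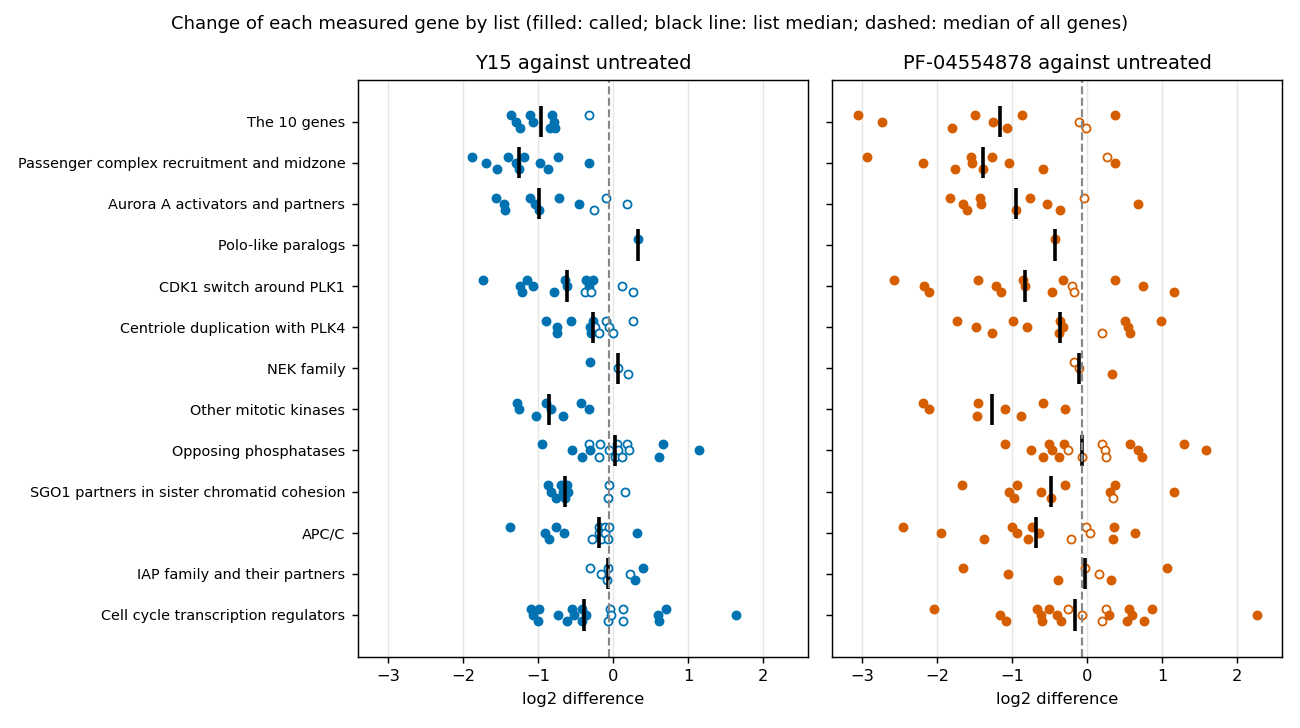
Log2 difference (horizontal axis) of each measured gene in the 10 genes and the 12 related lists, for Y15 against untreated (left) and PF-04554878 against untreated (right); filled points were called, black lines are list medians and the dashed line is the median of all genes (-0.05 and -0.07). Other mitotic kinases lie left of the dashed line in both panels, while phosphatases lie on both sides of it; positions shift to the left with median scaling over all probes.

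Other mitotic kinases were lower in 8 of 8 measured cases under each compound, with medians of -0.86 under Y15 and -1.27 under PF-04554878. With a common median over the tested probes 7 of 8 were called lower under each compound, HASPIN being lost in both, and under Y15 6 of 8 were called with no detection filter, without either Y15 array or without untreated array 1. BUB1, whose histone mark recruits the passenger complex through shugoshin, had 8.41 and 8.41 log2 signal on the Y15 arrays, 7.47 and 7.50 on the PF-04554878 arrays, and 9.70 and 9.64 on the untreated arrays. It was 2.39-fold lower under Y15 (adjusted p = 4.5e-05), with a log2 change of -2.19 under PF-04554878 (adjusted p = 1.0e-06). MELK changed by -1.29 and -2.11 (dimmer probe -0.87 and -1.63), and the spindle checkpoint kinase TTK by -0.89 and -1.46.

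The paralogs of the Polo and NEK kinases were mostly not measured. Of 3 Polo-like paralogs only PLK2 was detected, with 7.55 and 7.59 log2 signal on the Y15 arrays, no detection on the PF-04554878 arrays, and 7.20 and 7.28 on the untreated arrays. PLK2 was called higher under Y15 (0.33, adjusted p = 0.0219; -0.22 with median scaling over all probes) and lower under PF-04554878, by at least 1.16-fold (adjusted p = 0.0034; 0.03 with a common median over the tested probes). Of 10 other NEK genes 3 were measured. NEK7 was called lower under Y15, where it was undetected (at least 1.19-fold, adjusted p = 0.0334; 0.15 with a common median over the tested probes), and higher under PF-04554878 (0.33, adjusted p = 0.0141; -0.19 with median scaling over all probes).

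Genes of centriole duplication, in which PLK4 acts, were lower in 7 of 13 cases and higher in none under Y15 (median -0.27), and lower in 8 and higher in 4 under PF-04554878 (CEP135, CETN2, CCP110 and FBXW5, none of them called higher with median scaling over all probes; list median -0.37). STIL, the partner through which PLK4 builds new centrioles, changed by -0.56 under Y15 (adjusted p = 0.0026) and -0.37 under PF-04554878 (adjusted p = 0.0097). CEP152, which recruits PLK4, was undetected on all 4 treated arrays, so a higher call was not open to its brightest probe. CEP152 was at least 1.73-fold lower under Y15 and at least 1.71-fold lower under PF-04554878, while its dimmer probe changed by -0.27 and -0.25. CEP63, a binding partner of CEP152, changed by -0.27 under Y15 (adjusted p = 0.0429) and by -1.28 under PF-04554878 (adjusted p = 8.5e-06), and the compounds differed by 1.01 (adjusted p = 3.1e-05).

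Partners of SGO1 in sister chromatid cohesion were lower in 8 of 11 cases and higher in none under Y15 (median -0.65), and lower in 7 and higher in 3 under PF-04554878 (WAPL, RAD21 and SMC1A, of which RAD21 alone was still called higher with median scaling over all probes; median -0.49). SGO2, the paralog of SGO1, changed by -0.87 under Y15 and -1.04 under PF-04554878 (adjusted p = 0.0022 and 3.0e-04). PTTG1 (securin), the inhibitor of separase, changed by -0.61 under Y15 and -1.67 under PF-04554878 (adjusted p = 0.0023 and 4.3e-06), and its dimmer probe by -1.21 and -1.84. RAD21, the cohesin subunit that separase cuts, had 9.91 and 10.20 log2 signal on the Y15 arrays, 11.08 and 11.02 on the PF-04554878 arrays, and 9.93 and 9.87 on the untreated arrays, and was higher by 1.15 under PF-04554878 (adjusted p = 5.1e-05), with 1.37 on its dimmer probe.

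The anaphase-promoting complex, which destroys the Aurora kinases and PLK1 at the end of mitosis, had 5 of 14 genes lower under Y15 (UBE2C, ANAPC1, CDC20, ANAPC7 and ANAPC5) and 1 higher (CDC26, 0.32, at -0.79 with median scaling over all probes; list median -0.18). Under PF-04554878, 8 were lower and 3 were higher (ANAPC10, ANAPC15 and CDC23, none of them called higher with median scaling over all probes; list median -0.69). CDC20, its mitotic activator, had 10.59 and 10.16 log2 signal on the Y15 arrays, 8.78 and 8.75 on the PF-04554878 arrays, and 11.29 and 11.16 on the untreated arrays. The change was -0.85 under Y15 (adjusted p = 0.0022) and -2.46 under PF-04554878 (adjusted p = 3.5e-06). UBE2C, the ubiquitin carrier of the complex, changed by -1.37 and -1.95 (adjusted p = 1.2e-04 and 4.3e-06), with -0.40 under Y15 and -0.72 under PF-04554878 on its dimmer probe.

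Phosphatases that oppose these kinases were called at shares near those of all genes. Under Y15, 4 of 17 were lower (PPP2R2D, PPP1CA, CDCA2 and PPP2R1B) and 3 were higher (PPP2R2A, PPP2CA and PPP2R5A, none of them called higher with median scaling over all probes), with a median of 0.02, beside 21.4% of all genes lower and 16.7% higher. Under PF-04554878, 7 were lower and 5 were higher (PPP1CB, PPP2CA, PPP2R5E, PPP6C and PPP2R2A, of which PPP1CB and PPP2CA were still called higher with median scaling over all probes), with a median of -0.07, beside 35.0% lower and 27.2% higher. PPP2CA, a catalytic subunit of phosphatase 2A, had 12.50 and 12.36 log2 signal on the Y15 arrays, 13.01 and 13.10 on the PF-04554878 arrays, and 11.78 and 11.75 on the untreated arrays, while its dimmer probe changed by 0.14 under Y15 and 0.06 under PF-04554878. PPP1CB, a catalytic subunit of phosphatase 1, was higher by 1.58 under PF-04554878 (adjusted p = 1.0e-05), with 0.22 on its dimmer probe.

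Survivin belongs to the inhibitor of apoptosis family. Of 7 measured members and partners none was lower and 2 were higher under Y15 (BIRC2, 0.40, and CASP9, 0.29, both called lower with median scaling over all probes), with a median of -0.07. Under PF-04554878, 3 were lower (DIABLO, HTRA2 and CASP9, the last at 0.03 with a common median over the tested probes) and 2 were higher (BIRC2 and BIRC6, neither of them called higher with median scaling over all probes), with a median of -0.03. With a common median over the tested probes the list medians were 0.07 under Y15 and 0.42 under PF-04554878. BIRC2, which encodes cIAP1, had 8.93 and 8.96 log2 signal on the Y15 arrays, 9.41 and 9.79 on the PF-04554878 arrays, and 8.65 and 8.45 on the untreated arrays, and its dimmer probe changed by -0.10 under Y15 and -0.23 under PF-04554878. DIABLO, the mitochondrial antagonist of these inhibitors, had 11.39 and 11.46 on the Y15 arrays, 9.57 and 9.53 on the PF-04554878 arrays, and 11.21 and 11.21 on the untreated arrays. It changed by -1.66 under PF-04554878 (adjusted p = 2.3e-06), while its 2 dimmer probes gave 0.09 and -1.07 under PF-04554878.

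Regulators that control the transcription of late cell cycle genes were also mixed. Of 20 measured genes, 11 were lower and 4 were higher under Y15 (CDKN1A, DYRK1A, LIN52 and E2F6, of which CDKN1A alone was still called higher with median scaling over all probes), with a median of -0.39. Under PF-04554878, 9 were lower and 7 were higher, with a median of -0.17, and with median scaling over all probes only DYRK1A was called higher. With a common median over the tested probes the median under PF-04554878 was 0.16. CDKN1A, which encodes the cyclin-dependent kinase inhibitor p21, had 12.20 and 12.06 log2 signal on the Y15 arrays, 11.13 and 11.57 on the PF-04554878 arrays, and 10.40 and 10.58 on the untreated arrays. Its change was 1.64 under Y15 (adjusted p = 1.6e-04) and 0.86 under PF-04554878 (adjusted p = 0.0012), with 0.97 under Y15 and 2.43 under PF-04554878 on its dimmer probe. DYRK1A, a kinase that assembles the DREAM repressor, was higher by 2.26 under PF-04554878 (adjusted p = 1.4e-06) and by 0.70 under Y15 (adjusted p = 0.0013), the second being -0.45 with median scaling over all probes. LIN9, a core subunit of the same complex, changed by -1.07 under Y15 and -1.09 under PF-04554878 (adjusted p = 7.0e-04 and 1.9e-04).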

How the data were processed

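RNA of TT cells was labeled as cRNA and read on Illumina bead arrays, with GenomeStudio named in the submitters' processing notes. Probe identifiers match the HumanHT-12 v4 annotation, although HumanRef-8 is the chip in the methods. The deposited intensity values are mean bead intensities, neither background-corrected nor scaled by the authors. Each deposited detection p-value was computed by the authors against negative control beads. The authors' deposited log2 table, quantile normalized with lumi, differed from the values recomputed here by at most 5.0e-09.

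Of 47323 probes, 47317 had values. Intensities were converted to log2 and quantile normalized, and the 18876 probes with a detection p-value below 0.01 on at least 2 arrays were kept. A single gene was named for 30111 probes through the annotation, with symbols updated by gene ID for 30072. Each gene was represented by its brightest kept probe (11388 genes). The 3 groups were modelled together in limma 3.58.1 (R 4.3.3) (3 residual and 5.24 prior degrees of freedom, two-sided), with Benjamini-Hochberg adjustment over all kept probes. A call needed an adjusted p below 0.05 and a change of at least 1.2-fold. A probe undetected on both arrays of a group was given as a bound, the mean of the other group over the lowest detected signal, or over its own where higher. Differences between probes were fitted in the same way. The number of arrays limits the precision. The script was tested on simulated data.

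The members, the lists and the tests were chosen with earlier results of these data known. Named genes were the members, up to 4 genes of each list with the largest called change per compound, the 5 genes nearest to BIRC5 and to AURKA, and genes behind a count of 5 or fewer. Not every gene under this rule is described. Tried as alternatives were background correction with nec (offset 50) or neqc (offset 16), 2 median scalings, the deposited log2 table, other detection filters, 1 probe per gene, a trended and robust prior, only the groups compared, replicate blocks, other thresholds and leaving out each array.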

Additional observations from a re-analysis of the deposited data

How the results depend on the processing

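With a call at 2-fold instead of 1.2-fold, 5 of the 10 genes were lower under Y15 and 3 differed between Y15 and PF-04554878, and in the related lists 23 genes were lower and 2 higher under Y15, 37 lower and 6 higher under PF-04554878, and 13 lower and 10 higher in Y15 than in PF-04554878. The differences between the BIRC5 probes then missed that minimum under Y15 (-0.89) and between the compounds (0.91). With median scaling over all probes, 118 related genes were lower and 1 was higher under Y15 and 5 were higher under PF-04554878, and INCENP was at -0.29 under PF-04554878. With a common median over the tested probes the dimmer BIRC5 probe was at 0.032 under Y15. With neqc background correction the BIRC5 probe difference under Y15 was -0.36. The cause was not tested.

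Leaving out 1 array at a time gave 8 to 9 genes lower under Y15, 6 to 7 lower under PF-04554878 and 7 to 9 that differed between the compounds. In the related lists it gave 53 to 68 lower and 6 to 12 higher under Y15 (6 without Y15 array 1 and 7 without Y15 array 2), 69 to 75 lower and 23 to 31 higher under PF-04554878, and 37 to 41 lower and 41 to 47 higher in Y15 than in PF-04554878. The BIRC5 probe difference lay between -0.99 and -0.82 for Y15, between -1.86 and -1.71 for PF-04554878, and between 0.77 and 1.04 for Y15 against PF-04554878. A group left with 1 array was assumed to vary like the others.

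Replicate numbers are shared by the groups, but with 2 pairs, whose deviations correlated at -0.28 (Y15 and untreated), 0.21 (PF-04554878 and untreated) and -0.10 (Y15 and PF-04554878), they were not taken as pairs. With the replicate number as a block, 9 of the 10 genes were lower under Y15, 7 were lower under PF-04554878, where INCENP was no longer called higher, and 9 differed between the compounds. The crossed pairing, added after seeing the data, gave 9, 7 and 9. The BIRC5 probe difference has no value with 1 probe per gene. Over 20 alternatives, the values of single probes kept direction and call in 251 of 267 cases for Y15 against untreated, 253 for PF-04554878 against untreated and 242 for Y15 against PF-04554878. The deposited log2 table, 1 of these alternatives, equals the recomputed values, so its cases had to stay the same. Signals near the lowest detected one limit INCENP, PLK1, SGO1, the dimmer BIRC5 and NEK2 probes, and BORA and PLK4 under PF-04554878.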
